A study of Homo sapiens with 4 samples.

Results

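The proteasome genes followed here are the subunits and dedicated assembly factors of the proteasome whose symbols begin with PSMA to PSMG and a number, leaving out the immune subunits PSMB8, PSMB9 and PSMB10 and any pseudogene. Of the 45 genes in these classes, 39 had a probe set that named them alone, among 19775 genes on the array, and 38 reached the level minimum described next, among 13794. RNA from 2 human melanoma lines had been hybridised to 4 HG-U133 Plus 2.0 arrays, 1 for each group, 48 h after transfection: A375 with an siRNA against ZIC5, A375 with a negative control siRNA, SK-MEL-28 with the ZIC5 siRNA and SK-MEL-28 with the negative control siRNA. Both are established lines with an activating BRAF mutation, and ZIC5 is a zinc-finger transcription factor. Each gene was read on the probe set with the highest mean log2 intensity over the 4 arrays, and a mean of at least 5 (intensity 32) was required. Within a line, the siRNA difference is log2 intensity on the ZIC5 siRNA array minus log2 intensity on the control array. No group had a second array, so a difference within a line carries no replicate check, and the number of arrays limits the precision. In RNA from whole cultures, fewer cells of a kind and less RNA per cell cannot be told apart.

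The median intensity of an array lay between 38.4 and 39.4. ZIC5 itself had intensities of 14.1 with ZIC5 siRNA and 16.8 with control siRNA in A375, and in SK-MEL-28 of 15.5 with ZIC5 siRNA and 21.4 with control siRNA, all under the level minimum, so the arrays do not check the knockdown. Of 7 melanocyte markers measured, 7 reached the minimum, and their summed intensity was 2316 and 1751 on the ZIC5 siRNA and control arrays of A375, against 43146 and 46522 on those of SK-MEL-28. In A375 the pigment cell markers PMEL (35.9 with ZIC5 siRNA and 32.4 with control siRNA), MLANA (17.0 and 13.9), TYRP1 (8.1 and 7.5) and TYR (26.7 and 33.5) were near or under the minimum, so these pigment markers were close to absent there. MLANA and TYRP1 reached the minimum on the mean only through their SK-MEL-28 arrays. The remaining markers were above it in A375: SOX10 had 1660 with ZIC5 siRNA and 895 with control siRNA, MITF 235 and 357, and S100B 334 and 413. Fibroblast, keratinocyte and immune markers summed to between 256 and 296, between 128 and 451, and between 61.7 and 66.3 per array.

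The proteasome is the barrel-shaped protease that destroys proteins tagged with ubiquitin. Its core particle is built of outer rings of alpha subunits and inner rings of beta subunits, and a regulatory particle of ATPase and non-ATPase subunits binds the ubiquitin tag, unfolds the substrate and feeds it into the core. Chaperones that do not stay in the finished particle guide the assembly of both parts, and in mammalian cells the transcription factor NFE2L1 raises proteasome gene transcription when proteasome activity drops.

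Most of the 38 proteasome genes differed little between ZIC5 and control siRNA, and the 2 lowest in both lines were PSMD10 and PSMA7. PSMD10 is an assembly chaperone of the regulatory particle also known as the oncoprotein gankyrin, and PSMA7 is an alpha subunit of the core. PSMD10 stood far below the rest in both lines. PSMA7 followed it in SK-MEL-28 (-1.02), well below PSMB6 (-0.53), but in A375 PSMA7 (-1.03) lay close to PSMC3 (-0.98). The median difference over the 38 genes was -0.08 in A375, against -0.01 over all 13794 genes, and 0.06 in SK-MEL-28, against 0.00 over all genes. In A375, 23 of 38 were lower (percent of all genes lower 51.2) and 15 were higher (48.5). In SK-MEL-28, 15 of 38 were lower (49.6) and 23 higher (50.2). The same shares of all genes stand beside the counts by sign given below for each small class and list. In 25 of 38 the difference was under 0.32 on the log2 scale in both lines, against 41.3% of all genes, which have a lower median level (10.95 log2 for the proteasome genes, 7.76 for all genes). The part of level in that count was not tested.

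**Figure D1:**
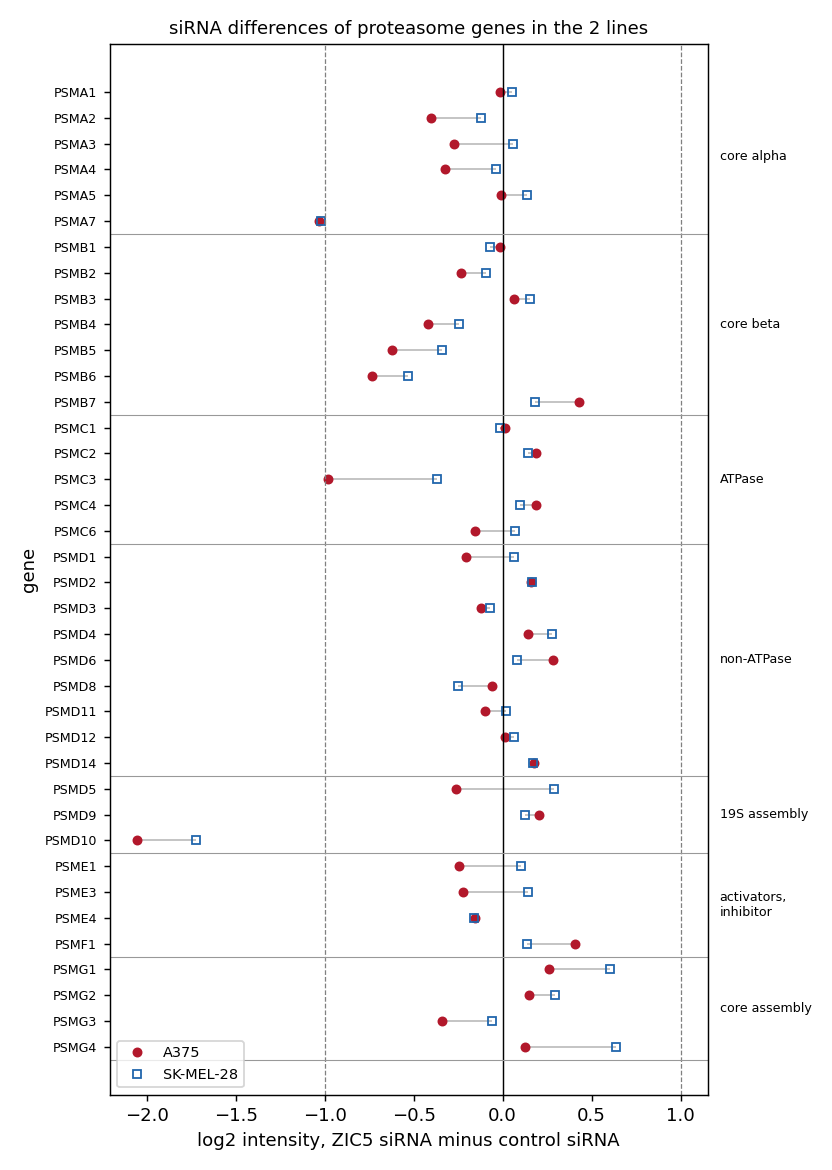
Each row is a proteasome gene, grouped by role, and the horizontal axis is the log2 intensity difference, ZIC5 siRNA minus control siRNA, with filled red circles for A375, open blue squares for SK-MEL-28 and dashed lines at 2-fold. PSMD10 (-2.06 for A375 and -1.72 for SK-MEL-28) stands apart on the left, and PSMA7 (-1.03 and -1.02) comes next. In A375 PSMC3 lies close to PSMA7, PSMB6 and PSMB5 follow, and PSMG1 and PSMG4 lie furthest right in SK-MEL-28.

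PSMD10 intensity was 325 with ZIC5 siRNA and 1353 with control siRNA in A375, 4.16-fold lower. In SK-MEL-28 it was 414 with ZIC5 siRNA and 1366 with control siRNA, 3.30-fold lower. The control arrays of A375 and SK-MEL-28 differed by only -0.01 on the log2 scale, and both ZIC5 siRNA arrays lay far below them. The other PSMD10 probe set read 216 with ZIC5 siRNA against 746 with control siRNA in A375 (-1.79 log2), and 264 with ZIC5 siRNA against 735 with control siRNA in SK-MEL-28 (-1.48 log2). Among the 13794 genes, 10 (0.0725%), PSMD10 included, were at least as low as PSMD10 in both lines at once. Averaged over the 2 lines the difference was -1.89 (SE 0.18, limma with line as a block), and limma gave an unadjusted p of 0.000557 and, adjusted over all genes, 0.268.

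PSMA7 intensity was 2363 with ZIC5 siRNA and 4832 with control siRNA in A375, 2.04-fold lower. In SK-MEL-28 it was 2985 with ZIC5 siRNA and 6063 with control siRNA, 2.03-fold lower. The lines gave almost the same difference, -1.03 and -1.02, and the other PSMA7 probe set gave -1.08 (A375) and -1.03 (SK-MEL-28). The mean difference was -1.03 (SE 0.11, 2 lines), with a limma unadjusted p of 0.000745 and an adjusted p of 0.268. This is the lowest adjusted p in the fit, shared by 190 genes, so neither gene passed the threshold of 0.05. In each line these 2 of 38 proteasome genes were at least 2-fold lower, against 5.05% of all genes for A375 and 2.12% for SK-MEL-28, and both were so in both lines at once, as were 1.15% of all genes. At least 2-fold higher were 0 of 38, against 3.89% of all genes in A375 and 0.776% in SK-MEL-28. PSMA7, at -1.03 in A375, lies just inside that 2-fold mark and PSMC3, at -0.98, just outside it, and PSMC3 crosses it with loess (-1.02) and, narrowly, with equal array medians.

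The limma fit called 0 of 13794 genes for the siRNA effect at an adjusted p under 0.05 (0%), and 0 of the 38. At an unadjusted p under 0.05, limma gave 6 of 38 proteasome genes, all lower (PSMA7, PSMB4, PSMB5, PSMB6, PSMC3 and PSMD10), against 7.31% of all genes lower at that mark, and 0 higher, against 5.91%. Across the 38 genes, which share their arrays and are not independent, the A375 and SK-MEL-28 differences correlated with Pearson's r at 0.886 and Spearman's rho at 0.730, and with r at 0.713 once PSMA7 and PSMD10 were left out. Over all genes the values were 0.441 and 0.413. All genes have a lower median level (7.76 log2, against 10.95 for the proteasome genes), and the part of level in this gap was not tested.

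To show the start regions of genes that stood at the ends of these ranges, the 250 bases before the annotated start are given for PSMD10 and PSMC3, low in both lines, and for PSMG1 and PSMG4, the core assembly chaperones that were highest in SK-MEL-28. PSMA7 had no window in the RefSeq table used. The windows are on GRCh38.p14, from RefSeq: PSMD10 at chrX:108091543-108091792 on the minus strand, PSMC3 at chr11:47426440-47426689 on the minus strand, PSMG1 at chr21:39183452-39183701 on the minus strand and PSMG4 at chr6:3258697-3258946 on the plus strand. Each is written 5′ to 3′ on the strand of its gene. Capitals mark matches, on either strand, to TGANNNNGC, CCAAT (the CCAAT box) or CCGGAAG (the core bound by ETS factors), and no marked match overlaps another. TGANNNNGC is a loose spelling of the antioxidant response element, the kind of site bound by NFE2L1 and NFE2L2. It leaves the base after TGA free, so a match to these letters need not be such an element.
PSMD10: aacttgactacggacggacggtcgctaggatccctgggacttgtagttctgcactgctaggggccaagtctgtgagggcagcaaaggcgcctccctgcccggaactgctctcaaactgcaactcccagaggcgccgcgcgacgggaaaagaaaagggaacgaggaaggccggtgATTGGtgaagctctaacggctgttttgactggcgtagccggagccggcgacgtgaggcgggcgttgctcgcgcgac
PSMC3: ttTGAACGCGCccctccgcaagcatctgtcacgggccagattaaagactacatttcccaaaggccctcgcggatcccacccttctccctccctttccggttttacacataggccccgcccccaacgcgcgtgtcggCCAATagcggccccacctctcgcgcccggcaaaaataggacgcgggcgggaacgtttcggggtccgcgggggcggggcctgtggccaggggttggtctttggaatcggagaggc
PSMG1: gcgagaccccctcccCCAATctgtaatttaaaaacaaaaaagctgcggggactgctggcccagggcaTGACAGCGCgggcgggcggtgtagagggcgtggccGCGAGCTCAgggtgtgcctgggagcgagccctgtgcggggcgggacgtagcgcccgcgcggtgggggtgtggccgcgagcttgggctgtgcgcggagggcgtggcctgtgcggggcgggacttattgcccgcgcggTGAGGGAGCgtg
PSMG4: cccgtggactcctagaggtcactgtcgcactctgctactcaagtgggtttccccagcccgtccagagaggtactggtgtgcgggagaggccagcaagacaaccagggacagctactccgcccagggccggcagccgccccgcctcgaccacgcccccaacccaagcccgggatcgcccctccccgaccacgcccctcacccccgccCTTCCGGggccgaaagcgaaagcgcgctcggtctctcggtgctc

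The PSMD10 window held 1 match, a CCAAT box 76 to 72 bases before the start on the opposite strand. The PSMC3 window held 2, an antioxidant response element letter match 248 to 240 and a CCAAT box 114 to 110 bases before the start. The PSMG1 window held 4, of which 3 were antioxidant response element letter matches, and the PSMG4 window held 1, to the ETS core. Windows were available for 32 of the 38 proteasome genes, and a gene with several windows counts once if any holds the motif. The antioxidant response element letters were found for 18 of 32 (56.2%), against 40.3% of all 27305 genes with a window. CCAAT was found for 15 of 32 (46.9%), against 37% of the same 27305 genes, and CCGGAAG for 9 of 32 (28.1%), against 10.2%. Those 27305 genes were not filtered by level on the arrays, unlike all genes elsewhere, while the 32 proteasome genes all reached the level minimum. The part of level in these shares was not tested. A letter match is a description and not a measured site. Of the windows printed, those of PSMC3 and PSMG1 held the antioxidant response element letters, and those of PSMD10 and PSMG4 did not. Whether these letters bear on the siRNA differences was not tested.

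Among the alpha subunits, which form the outer rings and the gate of the core, all 6 measured were lower in A375, with a median of -0.30, and 3 of 6 were lower in SK-MEL-28, with a median of 0.01. After PSMA7 the lowest was PSMA2, with 2964 on the ZIC5 siRNA array and 3912 on the control array of A375 (-0.40 log2), while SK-MEL-28 had 2876 with ZIC5 siRNA and 3132 with control siRNA (-0.12 log2). PSMA4 had 2778 with ZIC5 siRNA and 3475 with control siRNA in A375 (-0.32 log2), while SK-MEL-28 had 2366 with ZIC5 siRNA and 2425 with control siRNA (-0.04 log2). PSMA3 differed by -0.27 (A375) and 0.06 (SK-MEL-28). At the other end PSMA5 read 2184 with ZIC5 siRNA against 2195 with control siRNA in A375 (-0.01 log2), and 2819 with ZIC5 siRNA against 2560 with control siRNA in SK-MEL-28 (0.14 log2). PSMA1 had 3278 with ZIC5 siRNA and 3306 with control siRNA in A375 (-0.01 log2), while SK-MEL-28 had 5255 with ZIC5 siRNA and 5060 with control siRNA (0.05 log2). The alpha subunits thus spanned -1.03 to -0.01 in A375, and on the probe sets read none of the 5 besides PSMA7 differed by more than 0.14 in SK-MEL-28. A further PSMA5 probe set gave 0.51 in A375, the opposite sign, and 0.52 in SK-MEL-28, and both further PSMA1 probe sets were higher in A375, at 0.03 and 0.08. PSMA8, an alpha subunit known from testis, was under the level minimum and is named only.

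The beta subunits carry the active sites, and the 3 catalytic ones did not differ in the same direction. PSMB6, the caspase-like subunit, read 1573 with ZIC5 siRNA against 2615 with control siRNA in A375 (-0.73 log2), and 1522 with ZIC5 siRNA against 2201 with control siRNA in SK-MEL-28 (-0.53 log2). PSMB5, the chymotrypsin-like subunit that proteasome inhibitor drugs target, had 1390 with ZIC5 siRNA and 2137 with control siRNA in A375 (-0.62 log2), while SK-MEL-28 had 1192 with ZIC5 siRNA and 1511 with control siRNA (-0.34 log2). PSMB7, the trypsin-like subunit, read 5462 with ZIC5 siRNA against 4053 with control siRNA in A375 (0.43 log2), and 5884 with ZIC5 siRNA against 5195 with control siRNA in SK-MEL-28 (0.18 log2). PSMB5 and PSMB6 were thus lower, and PSMB7 higher, on the ZIC5 siRNA array of each line. The means over the lines were -0.63 for PSMB6 (SE 0.14), -0.48 for PSMB5 (SE 0.15) and 0.30 for PSMB7 (SE 0.12), with limma adjusted p of 0.298, 0.362 and 0.387.

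Of the non-catalytic beta subunits, PSMB4 had 6914 with ZIC5 siRNA and 9260 with control siRNA in A375 (-0.42 log2), while SK-MEL-28 had 7170 with ZIC5 siRNA and 8507 with control siRNA (-0.25 log2), with 3 of 3 probe sets lower in both lines. PSMB3 read 4086 with ZIC5 siRNA against 3908 with control siRNA in A375 (0.06 log2), and 3062 with ZIC5 siRNA against 2748 with control siRNA in SK-MEL-28 (0.16 log2). PSMB1 differed by -0.01 (A375) and -0.07 (SK-MEL-28) and PSMB2 by -0.24 (A375) and -0.09 (SK-MEL-28). In all, 5 of 7 beta subunits were lower in each line, the same 5 in both, with medians of -0.24 for A375 and -0.09 for SK-MEL-28. Over the 13 core subunits A375 had 11 lower, against 51.2% of all genes, and SK-MEL-28 had 8, against 49.6%. Of the 11, PSMA1, PSMA5 and PSMB1 differed by only -0.01 in A375.

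The ATPases form the ring that unfolds substrates, and on the probe sets read PSMC3 alone among the 5 measured differed by more than 0.2 in either line. PSMC3 had 875 with ZIC5 siRNA and 1726 with control siRNA in A375 (-0.98 log2), while SK-MEL-28 had 721 with ZIC5 siRNA and 932 with control siRNA (-0.37 log2). Its control value in A375 was the highest of its 4 arrays. The mean was -0.68 (SE 0.21), with a limma adjusted p of 0.362. PSMC6 read 1468 with ZIC5 siRNA against 1636 with control siRNA in A375 (-0.16 log2), and 1456 with ZIC5 siRNA against 1385 with control siRNA in SK-MEL-28 (0.07 log2). PSMC2 had 4027 with ZIC5 siRNA and 3531 with control siRNA in A375 (0.19 log2), while SK-MEL-28 had 4867 with ZIC5 siRNA and 4415 with control siRNA (0.14 log2). The 2 further PSMC2 probe sets were lower in A375, at -0.13 and -0.19, and gave 0.48 and 0.50 in SK-MEL-28. PSMC4, the ATPase to which gankyrin binds, read 2957 with ZIC5 siRNA against 2592 with control siRNA in A375 (0.19 log2), and 2396 with ZIC5 siRNA against 2242 with control siRNA in SK-MEL-28 (0.10 log2). PSMC1 had 1720 with ZIC5 siRNA and 1704 with control siRNA in A375 (0.01 log2), while SK-MEL-28 had 1720 with ZIC5 siRNA and 1736 with control siRNA (-0.01 log2). The ATPase median was 0.01 for A375 and 0.07 for SK-MEL-28.

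Non-ATPase subunits hold the scaffold, the ubiquitin receptors and the deubiquitinase of the regulatory particle. On the probe sets read, the 9 genes stayed in a narrow range, -0.20 to 0.29 in A375 and -0.25 to 0.28 in SK-MEL-28. Medians were 0.01 and 0.07, and 5 of 9 genes were higher in A375, against 7 of 9 in SK-MEL-28. PSMD4, a ubiquitin receptor, read 3616 with ZIC5 siRNA against 3276 with control siRNA in A375 (0.14 log2), and 2298 with ZIC5 siRNA against 1899 with control siRNA in SK-MEL-28 (0.28 log2). PSMD6 had 4133 with ZIC5 siRNA and 3390 with control siRNA in A375 (0.29 log2), while SK-MEL-28 had 5914 with ZIC5 siRNA and 5591 with control siRNA (0.08 log2). PSMD8 read 1920 with ZIC5 siRNA against 1998 with control siRNA in A375 (-0.06 log2), and 2700 with ZIC5 siRNA against 3217 with control siRNA in SK-MEL-28 (-0.25 log2). PSMD3 had 983 with ZIC5 siRNA and 1070 with control siRNA in A375 (-0.12 log2), while SK-MEL-28 had 989 with ZIC5 siRNA and 1038 with control siRNA (-0.07 log2). The deubiquitinase PSMD14 differed by 0.18 (A375) and 0.17 (SK-MEL-28), the scaffold subunits PSMD2 by 0.16 (A375) and 0.16 (SK-MEL-28) and PSMD1 by -0.20 (A375) and 0.06 (SK-MEL-28), PSMD11 by -0.10 (A375) and 0.02 (SK-MEL-28), and PSMD12 by 0.01 (A375) and 0.06 (SK-MEL-28). Further probe sets left the range given: in A375 that of PSMD11 gave -1.08 and that of PSMD12 -0.84, against 0.12 and 0.01 in SK-MEL-28. Those of PSMD4 reached 0.37 in A375 and 0.33 in SK-MEL-28. At an unadjusted limma p under 0.05 the class had 0 of 9 genes, against 13.2% of all genes, too few genes for that count to set it apart.

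The other chaperones of the regulatory particle did not share the PSMD10 difference. PSMD9 read 967 with ZIC5 siRNA against 839 with control siRNA in A375 (0.21 log2), and 921 with ZIC5 siRNA against 844 with control siRNA in SK-MEL-28 (0.13 log2). PSMD5 had 696 with ZIC5 siRNA and 833 with control siRNA in A375 (-0.26 log2), while SK-MEL-28 had 890 with ZIC5 siRNA and 730 with control siRNA (0.29 log2). PSMD5 was thus lower on the ZIC5 siRNA array of A375 and higher on that of SK-MEL-28, by under 0.32 in each, and limma put its mean at 0.01 (SE 0.21).

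Of 4 core assembly chaperones, 3 were higher in each line, with a median difference of 0.14 for A375 and 0.45 for SK-MEL-28, and 0 of 4 had an unadjusted limma p under 0.05 (13.2% of all genes). PSMG1 and PSMG2 form a pair that assembles the alpha ring. PSMG1 read 1124 with ZIC5 siRNA against 939 with control siRNA in A375 (0.26 log2), and 1816 with ZIC5 siRNA against 1194 with control siRNA in SK-MEL-28 (0.60 log2). PSMG2 had 1914 with ZIC5 siRNA and 1727 with control siRNA in A375 (0.15 log2), while SK-MEL-28 had 1656 with ZIC5 siRNA and 1349 with control siRNA (0.30 log2). PSMG4 read 656 with ZIC5 siRNA against 602 with control siRNA in A375 (0.12 log2), and 1050 with ZIC5 siRNA against 674 with control siRNA in SK-MEL-28 (0.64 log2), but its other probe set at the minimum gave -0.19 in each line. PSMG3, the partner of PSMG4, had 554 with ZIC5 siRNA and 700 with control siRNA in A375 (-0.34 log2), while SK-MEL-28 had 403 with ZIC5 siRNA and 420 with control siRNA (-0.06 log2). PSMG1 and PSMG4 were thus the 2 of 38 at least 1.5-fold (log2 0.58) higher in SK-MEL-28, against 4.2% of all genes, while 0 of 38 were so in A375, against 12.1%. At least 1.5-fold lower were 5 of 38 in A375 (PSMA7, PSMB5, PSMB6, PSMC3 and PSMD10), against 12.9% of all genes, and 2 in SK-MEL-28, against 6.41%.

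Activators open the core without ATP, and PSMF1 is known as an inhibitor of the core in vitro. PSMF1 had 755 with ZIC5 siRNA and 570 with control siRNA in A375 (0.41 log2), while SK-MEL-28 had 914 with ZIC5 siRNA and 831 with control siRNA (0.14 log2), although 2 of its 4 probe sets were lower in A375. PSME4, a nuclear activator, read 1143 with ZIC5 siRNA against 1275 with control siRNA in A375 (-0.16 log2), and 846 with ZIC5 siRNA against 944 with control siRNA in SK-MEL-28 (-0.16 log2). PSME1, a subunit of the interferon-induced activator, had 1136 with ZIC5 siRNA and 1347 with control siRNA in A375 (-0.25 log2), while SK-MEL-28 had 685 with ZIC5 siRNA and 637 with control siRNA (0.11 log2). PSME3, a nuclear activator, read 1084 with ZIC5 siRNA against 1266 with control siRNA in A375 (-0.22 log2), and 957 with ZIC5 siRNA against 868 with control siRNA in SK-MEL-28 (0.14 log2). The median was -0.19 for A375 and 0.12 for SK-MEL-28.

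**Figure D2:**
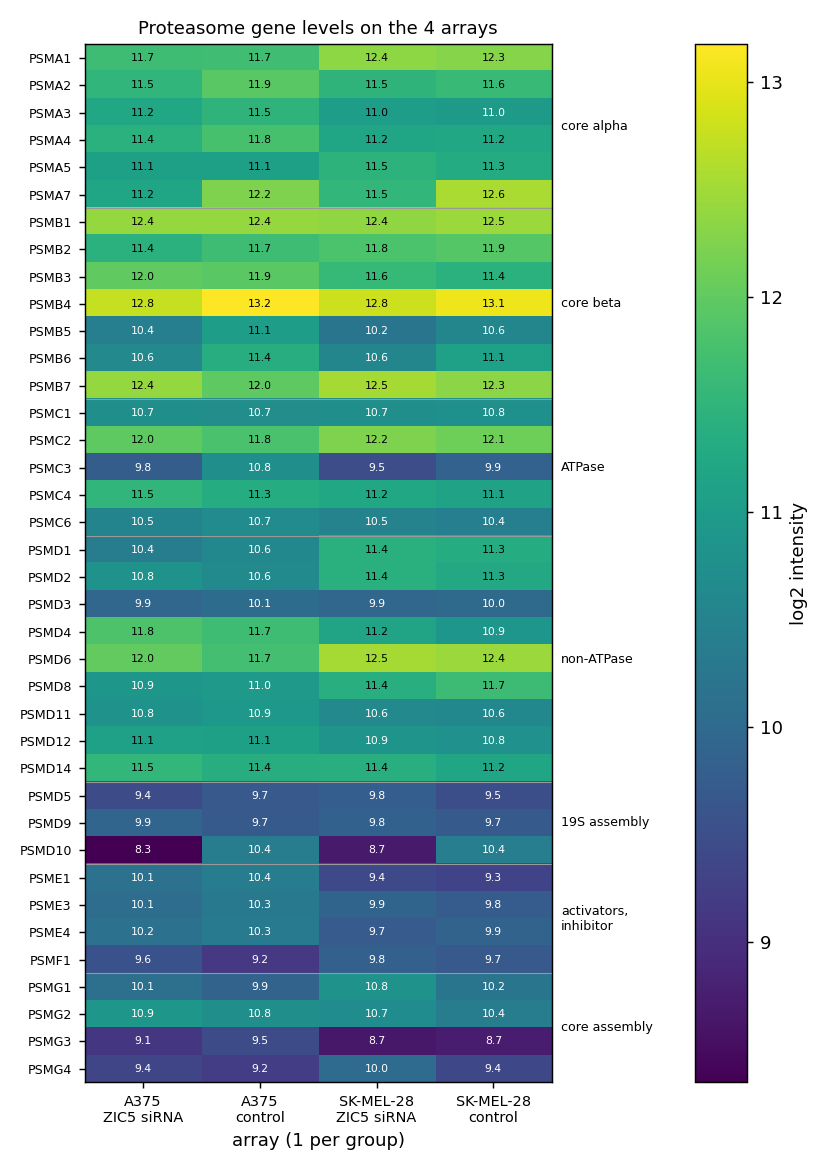
Rows are the 38 proteasome genes grouped by role, columns are the 4 arrays in the order A375 with ZIC5 siRNA, A375 control, SK-MEL-28 with ZIC5 siRNA and SK-MEL-28 control, and colour and printed values are log2 intensity, comparable along a row only. The mean levels of the genes run from 8.98 to 12.95, and PSMD10 is darker on both ZIC5 siRNA arrays than on both control arrays.

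Set against SK-MEL-28, A375 gave the lower siRNA difference in 27 of 38 genes, among them all 6 alpha subunits and all 4 core assembly chaperones, against 50.3% of all genes. Lower in A375 and higher in SK-MEL-28 were 9 of 38, against 18.6% of all genes, and the converse held for PSMC1 alone. With 1 array per group, the difference between the lines was not tested. The 9 were PSMA1, PSMA3, PSMA5, PSMC6, PSMD1, PSMD5, PSMD11, PSME1 and PSME3, and in none of them did both differences reach 0.32 in size. Counting PSMC1, 10 of 38 had opposite signs, against 35.6% of all genes.

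Where a gene had several probe sets, those of A375 spread further apart than those of SK-MEL-28. Over 19 genes with several probe sets at the minimum, the SD of the siRNA difference within a gene had a median of 0.22 in A375, against 0.09 in SK-MEL-28. In A375, 4 of 29 further probe sets lay at least 1.5-fold below the highest probe set of their gene, against 13.6% of such probe sets over all genes. They belonged to PSMB2 (-1.27, against -0.24 on the highest), PSMD11 (-1.08 against -0.10), PSMD12 (-0.84 against 0.01) and PSME3 (-0.97 against -0.22). A further PSMA2 probe set gave -0.96 against -0.40. In SK-MEL-28 the same 5 probe sets gave 0.19, 0.12, 0.01, 0.03 and 0.08. The sizes given for these genes in A375 therefore depend on the probe set read, and those in SK-MEL-28 do so less. Above the highest probe set by 1.5-fold stood only the other PSMB7 probe set in A375, at 1.05 against 0.43, out of 29, against 11.3% over all genes. In SK-MEL-28, 1 of 29, that of PSMG4, lay 1.5-fold below, against 4.58%, and 0 lay above, against 5.69%. The probe sets of a gene had both signs for 7 of the 19 genes in A375 (PSMA1, PSMA5, PSMC2, PSMD9, PSMD12, PSMF1 and PSMG4), against 41.2% of all genes with several. In SK-MEL-28 this held for 4 of the 19 (PSMA2, PSMB2, PSME4 and PSMG4), against 41.4%.

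**Figure D3:**
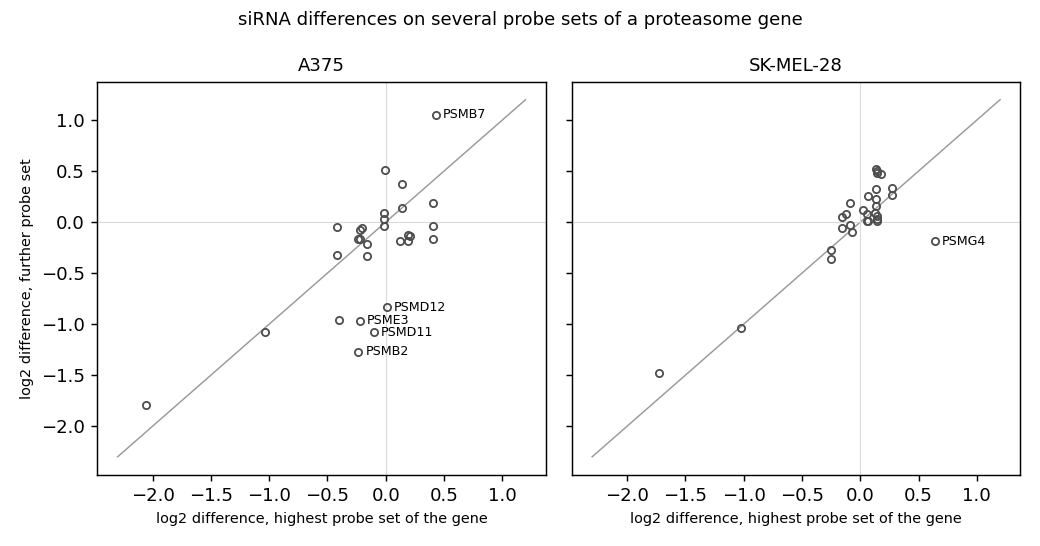
Each point is a further probe set of a proteasome gene, with its siRNA difference (log2) on the vertical axis and that of the highest probe set of the same gene on the horizontal axis, A375 on the left and SK-MEL-28 on the right, and the line marks equal differences. Points at least 1.5-fold off the line are named: PSMB2, PSMD11, PSMD12, PSME3 and PSMB7 in A375, and PSMG4 in SK-MEL-28, while PSMD10 and PSMA7 lie near the line at the lower left of both panels.

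Differences between the lines were read from the same limma fit as A375 minus SK-MEL-28, averaged over both transfections. Of the 38, 7 (18.4%) passed at a limma adjusted p under 0.05, against 27.7% of all genes. By limma 13 had an unadjusted p under 0.05, against 42.4%. By size 0 differed by 2-fold, against 10.9% of all genes higher and 10.8% lower in A375. At least 1.5-fold lower in A375 were 5, against 18.5% of all genes, and 3 were 1.5-fold higher, against 20.9%. All genes have a lower median level (7.76 log2, against 10.95 for the proteasome genes), and the part of level in these counts was not tested. The median line difference was 0.03, against 0.01 over all genes, with 21 of 38 genes higher in A375 (51% of all genes) and 17 lower (49%). Of the 7, 5 were non-ATPase subunits. The arrays of a line differ in transfection and are not replicates, so these p-values carry no check on separate cultures of a line.

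Lower in A375 were 5 of the 7, against 13.4% of all genes. PSMD1, a scaffold subunit, had 1347 (ZIC5 siRNA) and 1552 (control siRNA) in A375, against 2722 (ZIC5 siRNA) and 2602 (control siRNA) in SK-MEL-28, a difference of -0.88 (SE 0.14, limma adjusted p 0.0248). PSMA1 differed by -0.65 (SE 0.10, adjusted p 0.0239 by limma), PSMD6 by -0.62 (SE 0.11, 0.0295) and PSMD8 by -0.59 (SE 0.13, 0.0447). PSMD2, the other scaffold subunit, had 1786 (ZIC5 siRNA) and 1602 (control siRNA) in A375, against 2743 (ZIC5 siRNA) and 2449 (control siRNA) in SK-MEL-28, a difference of -0.62 (SE 0.12, limma adjusted p 0.0374). For each of these genes both A375 arrays lay under both SK-MEL-28 arrays.

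Higher in A375 were 2, against 14.2% of all genes. PSME1 differed by 0.90 (SE 0.18, limma adjusted p 0.0344), and PSMD4 by 0.72 (SE 0.12, limma adjusted p 0.0261). PSMD4 gave 0.72, 0.70 and 0.67 on its 3 probe sets at the minimum. Without a trend in the eBayes step, PSMD1, PSMD4 and PSME1 passed, and PSMA1, PSMD2, PSMD6 and PSMD8 did not (limma adjusted p from 0.0541 to 0.0712). Without the level minimum, PSMD2 (limma adjusted p 0.0515) and PSMD8 (0.0614) did not pass. PSMC3 differed between the lines by 0.28 on the ZIC5 siRNA arrays and by 0.89 on the control arrays, and PSMG3 by 0.46 and 0.74 in that order, and neither passed on the mean (limma adjusted p 0.127 and 0.0850).

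**Figure D4:**
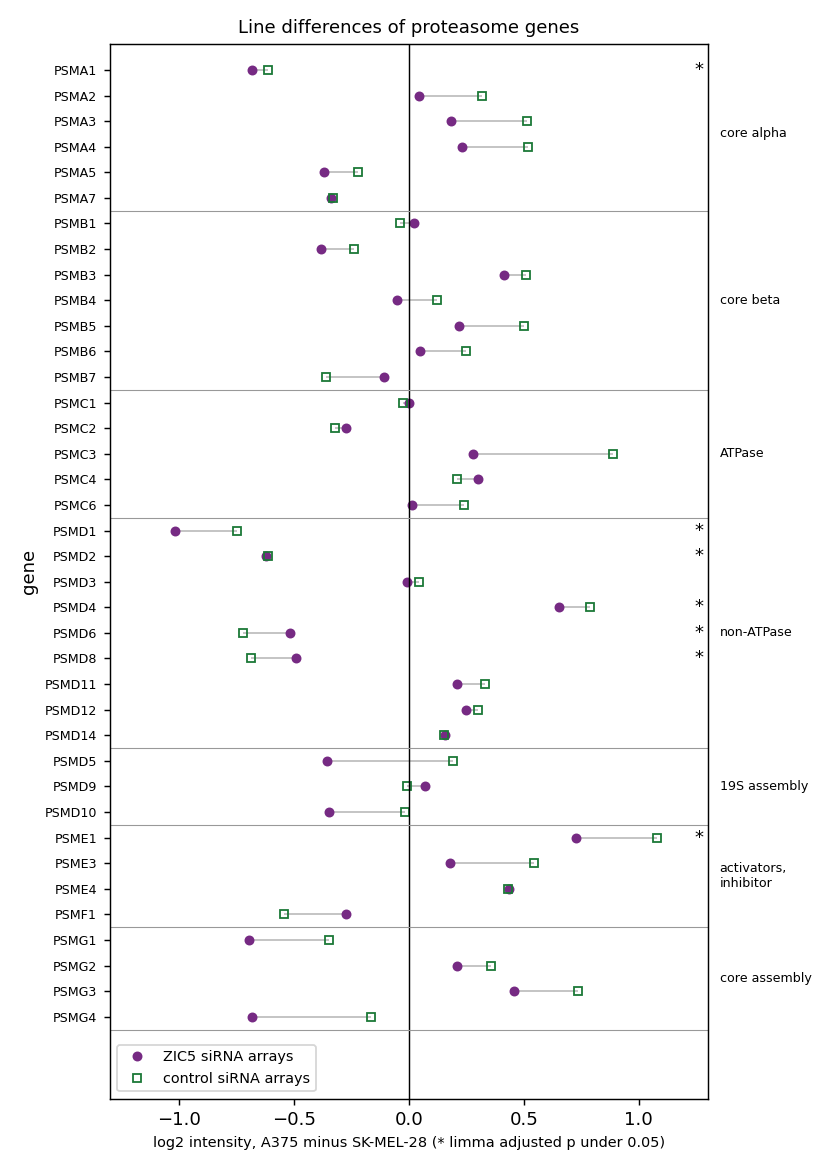
Rows are the 38 proteasome genes by role, and the horizontal axis is log2 intensity in A375 minus that in SK-MEL-28, on the ZIC5 siRNA arrays (filled purple circles) and on the control arrays (open green squares), with an asterisk where the limma adjusted p of the mean is under 0.05. PSMD1, PSMA1, PSMD6, PSMD2 and PSMD8 stand at the left and PSME1 and PSMD4 at the right, and PSMC3 has the widest gap between its symbols.

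Other genes of the pathway were taken as listed, and none of the 30 measured passed limma at an adjusted p under 0.05 for the siRNA effect. NFE2L1, the factor that drives proteasome genes, had 1340 with ZIC5 siRNA and 909 with control siRNA in A375 (0.56 log2), while SK-MEL-28 had 2015 with ZIC5 siRNA and 1543 with control siRNA (0.39 log2), with all 3 probe sets higher in each line. Its mean was 0.47 (SE 0.15, limma adjusted p 0.361). NGLY1, the glycanase that NFE2L1 needs for its activity, had 617 with ZIC5 siRNA and 351 with control siRNA in A375 (0.82 log2), while SK-MEL-28 had 648 with ZIC5 siRNA and 519 with control siRNA (0.32 log2). UFD1 differed by 0.32 (A375) and 0.15 (SK-MEL-28), and VCP, the segregase that pulls NFE2L1 out of the endoplasmic reticulum, by -0.12 (A375) and -0.05 (SK-MEL-28). The NFE2L1 list had 6 of 8 genes higher in A375, with a median of 0.44, and 4 of 8 in SK-MEL-28, with a median of -0.02. The small MAF partner MAFG differed by 0.72 (A375) and 0.01 (SK-MEL-28), and the small MAF MAFF by 0.27 (A375) and -0.46 (SK-MEL-28). NFE2L2 differed by 0.65 (A375) and -0.19 (SK-MEL-28).

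Among 12 other parts and partners, A375 had 7 higher and SK-MEL-28 had 11, with medians of 0.12 and 0.19. AKIRIN2, which brings proteasomes into the nucleus, read 680 with ZIC5 siRNA against 495 with control siRNA in A375 (0.46 log2), and 838 with ZIC5 siRNA against 656 with control siRNA in SK-MEL-28 (0.35 log2). The thioredoxin-like partner TXNL1 differed by 0.58 (A375) and 0.21 (SK-MEL-28), the adaptor ECPAS by 0.27 (A375) and 0.30 (SK-MEL-28), the proteasome-bound ligase UBE3C by 0.27 (A375) and 0.20 (SK-MEL-28), and POMP, the maturation factor of the core, by 0.12 (A375) and 0.08 (SK-MEL-28).

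The immune subunits that replace the catalytic ones gave 2 of 3 lower in each line. PSMB8, the counterpart of PSMB5, had 314 with ZIC5 siRNA and 497 with control siRNA in A375 (-0.66 log2), while SK-MEL-28 had 332 with ZIC5 siRNA and 346 with control siRNA (-0.06 log2). PSMB9, that of PSMB6, differed by -0.23 (A375) and -0.02 (SK-MEL-28), and PSMB10, that of PSMB7, by 0.17 (A375) and 0.16 (SK-MEL-28). Of 4 shuttle factors measured, 3 were lower in A375 and 1 in SK-MEL-28: UBQLN2 had 694 with ZIC5 siRNA and 1128 with control siRNA in A375 (-0.70 log2), while SK-MEL-28 had 468 with ZIC5 siRNA and 579 with control siRNA (-0.31 log2). RAD23B differed by 0.37 (A375) and 0.39 (SK-MEL-28), although 2 of its 3 probe sets were lower in A375. UBQLN1 differed by -0.32 (A375) and 0.03 (SK-MEL-28), and UBQLN4 by -0.04 (A375) and 0.18 (SK-MEL-28). The ubiquitin gene UBB differed by -0.04 (A375) and -0.11 (SK-MEL-28), and the activating enzymes UBA1 by -0.02 (A375) and 0.03 (SK-MEL-28) and UBA6 by 0.44 (A375) and -0.04 (SK-MEL-28).

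**Figure D5:**
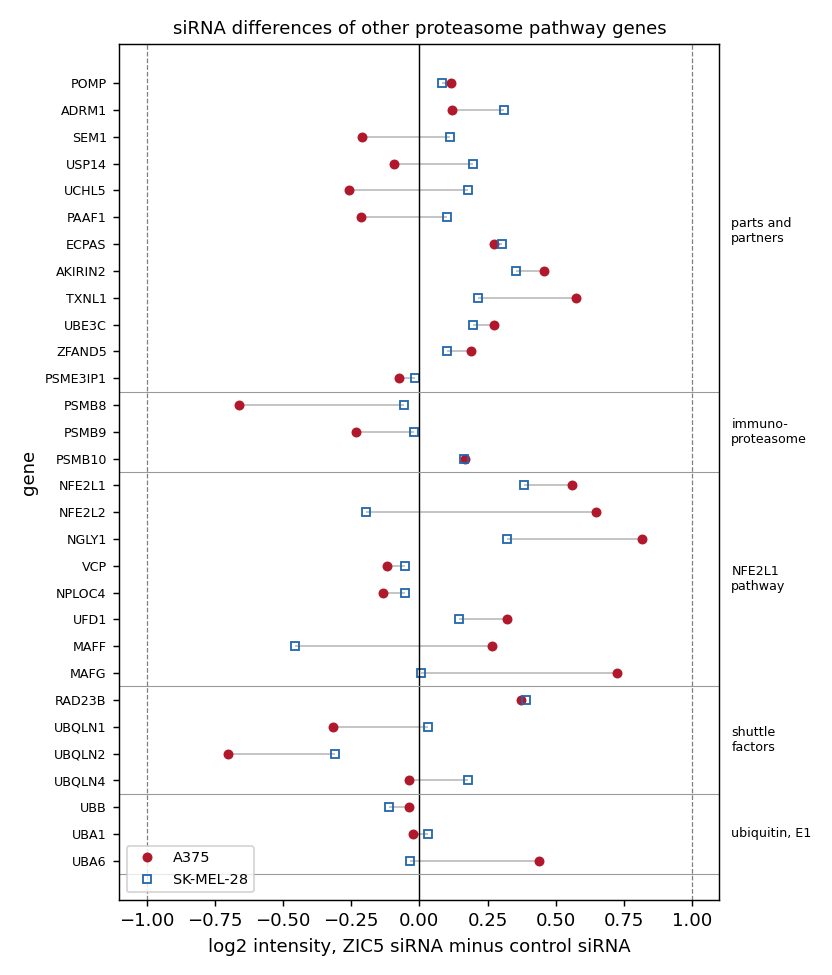
Rows are 30 other genes of the proteasome pathway by list, and the horizontal axis is the log2 difference, ZIC5 siRNA minus control siRNA, with filled red circles for A375, open blue squares for SK-MEL-28 and dashed lines at 2-fold. NGLY1, NFE2L1, AKIRIN2 and RAD23B are right of 0 in both lines, UBQLN2 is left of 0 in both, and all points lie within 2-fold.

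The symbol pattern also took 8 genes that are no subunits. Of these, 4 reached the minimum. PSMC3IP, a recombination factor, gave 0.04 for A375 and 0.42 for SK-MEL-28. PSMA3-AS1, an RNA antisense to PSMA3, differed by 0.08 (A375) and -0.41 (SK-MEL-28), and PSMD6-AS2 by 0.09 (A375) and 0.16 (SK-MEL-28), and the deposited values do not show how far their probe sets are strand-specific. PSME3IP1, a partner of PSME3, differed by -0.08 (A375) and -0.02 (SK-MEL-28).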

How the data were processed

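The deposited values are the authors' linear intensity for each probe set, produced by RMA in Expression Console (credited to the submitters' processing notes), and no aligner or build enters. They run from 2.78 to 22531, and log2 of the deposited values was taken here. Groups follow the labels. GEO's platform table supplied gene names for probe sets: 41091 of 54613 carry a single symbol, and the 1801 with several were left aside, which leaves out PSMA6 and PSME2, and PSMB11, PSMC5, PSMD7 and PSMD13 were not analysed here. Symbols were checked against the RefSeq table of GRCh38.p14. Both the siRNA effect and the line difference were read from a single additive model (R 4.3.3, limma 3.58.1, eBayes with trend) across 13794 genes, adjusted by Benjamini-Hochberg over all of them at 0.05, 1 residual degree of freedom and no interaction term. The labels do not say that arrays came from separate cultures. The 1 residual degree of freedom is the disagreement between the lines in the siRNA difference, which eBayes combines with that of other genes. Each p-value is set against this disagreement and not against a spread among replicate arrays, of which there are none. The fit was also run on simulated data, with a spread drawn from its own model and the same siRNA effect in both lines. That run therefore does not check the p-values of these arrays. Promoter windows are RefSeq's, cut to 250 bases. Members and lists were chosen with earlier results of these data known. Any member may be named. Values on all 4 arrays are given for PSMB5, PSMB6 and PSMB7, for the 2 highest and 2 lowest of each class by mean difference and for those 1.5-fold different in a line. Pathway genes are named by the greatest mean change, up to 4 a list, with NFE2L1 and POMP. VCP, NFE2L2 and MAFF were added after their values were seen. Alternatives were other level filters, a floor at log2 5, other ways to pick probe sets, loess, equal medians and no trend.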

Additional observations from a re-analysis of the deposited data

How the results depend on the processing

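Under all alternatives run, the medians of the proteasome genes moved by less than the typical SD among probe sets of 1 gene. That SD was 0.22 for A375, 0.09 for SK-MEL-28 and 0.15 between the lines. Each SD exceeds the size of the main median it was set against (-0.08, 0.06 and 0.03). This mark therefore cannot show that a median is stable. For A375 the median ran from -0.16 (no _x_at or _s_at probe sets) to -0.03 (PSMA7 and PSMD10 left out). The SK-MEL-28 median ran from 0.02 (loess) to 0.09 (no _x_at or _s_at probe sets). The line median ran from -0.0005 (loess) to 0.14 (control arrays alone). Leaving out PSMA7 and PSMD10, which gave 0.07 for SK-MEL-28, was chosen after seeing the data. With the mean of all probe sets, 1 proteasome gene was at least 1.5-fold higher in A375, against 0, and 1 in SK-MEL-28, against 2. Without probe sets ending in _x_at and _s_at, PSMA7 had none left, so 1 gene was at least 2-fold and 1 at least 1.5-fold lower in SK-MEL-28, against 2 and 2, and 1 was 1.5-fold higher. In A375 3 genes were then at least 2-fold lower, against 2: PSMD10, PSMB2 (-1.27) and PSMD11 (-1.08). With loess and with equal medians there were also 3, PSMD10, PSMA7 and PSMC3 (-1.02 with loess, narrowly past the mark with equal medians). Without _x_at and _s_at probe sets PSMG4 differed by -0.19 in SK-MEL-28, the opposite sign. With the mean of probe sets it differed by 0.23. With loess 1 gene was 1.5-fold higher in SK-MEL-28. PSMD10 ranged from -1.79 to -2.06 in A375, and from -1.48 to -1.72 in SK-MEL-28, between these choices of probe set. On the ZIC5 siRNA arrays alone 1 gene, PSMD1, was at least 2-fold lower in A375 than in SK-MEL-28, and on the control arrays alone PSME1 was higher in A375 by 1.08 log2. Limma called 4 proteasome genes for the line difference without _x_at and _s_at probe sets, where PSMA1 and PSMD1 had none left and PSMD4 had only 1 under the level minimum, and 3 with eBayes without trend, against 7. It called 0 genes for the siRNA effect under each alternative run. The siRNA fit already compares arrays within a line, and the labels carry no replicate numbers to use as a further block.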
